A study of Arabidopsis thaliana with 20 samples.

Results

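The comparison is between the polysomal messenger RNA of the pWOL line and that of the p35S line in Arabidopsis thaliana root tips held for 2 h without oxygen. Its members are the 4 arrays whose sample titles name both hypoxia and 1 of these promoters, 2 of pWOL and 2 of p35S, of 20 arrays in the series. The whole series holds 10 groups of 2 arrays: polysomal RNA of 4 promoter lines and total RNA, each in hypoxia and in air. Every line expresses a His6- and FLAG-tagged ribosomal protein L18 (RPL18B) in the Col-0 background. Ribosomes that carry the tag are pulled down with the messenger RNA they are translating, so that an array reports what ribosomes carried in cells that express the tag.

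The pWOL group has the genotype pWOL:His6FLAG-RPL18B and the p35S group p35S:His6FLAG-RPL18B. Seedlings of both were 7 days old, were kept for 2 h in argon and gave the terminal 1 cm of the root. The same lines in air, the pSHR and pSCR lines, and the total RNA of p35S seedlings are used below only to place the difference. The labels call pWOL vascular. Whether a line stands for 1 transgenic insertion, and whether the 2 arrays of a group came from separate cultures, is not stated in the labels. The p-values therefore rest on array-to-array spread alone, part or all of which may be technical.

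WOL encodes a cytokinin receptor of the stele, the central cylinder of the root that holds xylem, phloem, procambium and pericycle. The 35S promoter of cauliflower mosaic virus is active in most cell types, so p35S polysomes are an average that includes root cap, epidermis and cortex. In low oxygen, plant cells stop the translation of many messenger RNAs, switch on fermentation and a small set of low-oxygen response genes, and spare ATP. The comparison asks which transcripts differ in level between the tagged polysomes of pWOL and p35S while oxygen is short. Without total RNA of pWOL cells, ribosome loading, transcript level and the cells that carry the tag cannot be told apart.

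Values are log2 expression per probe set, on which a difference of 1 is a doubling. The 4 arrays had medians of 6.46 and 6.46 in pWOL and of 6.49 and 6.55 in p35S. Replicates correlated across probe sets at r = 0.9843 in pWOL and 0.9711 in p35S, and pWOL with p35S arrays at 0.9397 to 0.9539. The 3 prime minus 5 prime difference of GAPDH control probe sets grows with RNA shortening, and the 2 pairs on the array ran opposite ways. One pair gave 4.39 and 4.45 in pWOL and 4.08 and 3.62 in p35S, and the other 0.60 and 0.73 in pWOL and 1.22 and 1.58 in p35S. The 25S ribosomal RNA control read 14.30 and 14.29 in pWOL and 13.69 and 13.72 in p35S. The groups did not overlap for any of these controls, whose part in the results below was not tested.

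Against p35S, the measured cell type markers did not set pWOL polysomes apart as vascular. Of the 33 vascular regulators listed, 4 had a named probe set and 0 were called, with a median difference of -0.25. PHV, a class III homeodomain-leucine zipper factor of the stele, read 9.20 and 8.98 in pWOL and 9.40 and 8.69 in p35S, so that the groups overlapped. LHW, a bHLH factor needed for vascular cell divisions, read 7.72 and 7.67 in pWOL and 8.00 and 8.50 in p35S, and OPS, a phloem polarity protein, 5.31 and 5.10 in pWOL and 5.88 and 6.02 in p35S. In both cases the pWOL arrays lay below the p35S arrays, but neither gene passed the test (LHW -0.55 ± 0.30, SE, n = 2 each, adjusted p = 0.307; OPS -0.74 ± 0.34, adjusted p = 0.208). In air LHW and PHV were called lower in pWOL, by -1.26 and -0.78. The 3 measured xylem and secondary wall genes had a median difference of -0.99 and the 2 phloem genes one of -0.46, with 0 called in limma's test of all 22746 probe sets. Against hypoxic total RNA the medians were 0.32 for vascular regulators, 0.17 for xylem and 0.09 for phloem genes. There PHV alone was called higher in pWOL (1.02, adjusted p = 0.0213 in limma's test). Its mean in p35S (9.04) was also above that in total RNA (8.07). None of the listed vascular transporters could be named on the array, and neither could WOL itself. For these reasons the samples are called by their promoter and not by a tissue.

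Markers that did pass the test belonged to the endodermis, the cortex and the root cap. Here, and below, called means a Benjamini-Hochberg adjusted p below 0.05 in limma's fit over all 22746 probe sets, of which 3.84% were called higher in pWOL than in p35S and 4.44% lower. Of 6 measured endodermal markers 3 were called higher and 0 lower, of 6 cortical markers 1 was higher, and of 5 root cap markers 2 were lower. The endodermal list had a median difference of 0.88, with 4 positive and 2 negative. Its members not called, AT1G61590 (0.60), AT2G39430 (-0.47) and AT2G48130 (-0.37), overlapped between the lines. Hypoxic means of these 3 were 12.21, 10.10 and 10.44 in pSCR and 11.99, 8.55 and 9.60 in pWOL. Those of the called JKD, AT1G14580 and GSO1 were 7.84, 6.89 and 9.73 in pSCR and 8.67, 7.51 and 9.62 in pWOL. The 12 measured epidermal and root hair markers gave 0 calls and a median difference of 0.42.

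JKD, a zinc finger factor that holds SHORT-ROOT and SCARECROW activity to the endodermal layer, read 7.99 and 9.36 in pWOL and 6.71 and 6.45 in p35S. The difference was 2.10 ± 0.47 (SE, n = 2 each; limma, adjusted p = 0.0176). AT1G14580, a zinc finger factor of the same family, read 7.52 and 7.50 in pWOL and 6.45 and 6.11 in p35S, a difference of 1.23 ± 0.23 (adjusted p = 0.00784). GSO1, the receptor kinase through which the Casparian strip is sealed, read 9.36 and 9.87 in pWOL and 8.54 and 8.39 in p35S, a difference of 1.15 ± 0.33 (adjusted p = 0.0482). The pWOL arrays lay above both p35S arrays for each of the 3 genes. JKD lost its call without pWOL replicate 2 (adjusted p = 0.135), without p35S replicate 1 (0.0505) or without p35S replicate 2 (0.0914), AT1G14580 without pWOL replicate 1 (0.0676) or p35S replicate 2 (0.0597), and GSO1 without any 1 of the 4 arrays (0.107 to 0.248). JKD and AT1G14580 were also called higher in air, by 2.59 and 1.47.

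The cortical marker AT1G09750, an aspartyl protease of the apoplast, read 9.43 and 9.97 in pWOL and 7.96 and 6.86 in p35S. It was higher by 2.29 ± 0.32 (SE, n = 2 each; adjusted p = 0.00179, but 0.0562 with the 4 compared arrays alone) in hypoxia and by 3.39 in air. The 6 cortical markers as a list had a median difference of -0.10, and 4 of them were negative. AT1G12080 read 7.48 and 7.88 in pWOL and 8.59 and 9.57 in p35S (-1.39 ± 0.41, adjusted p = 0.054), and passed with the dim probe sets left out (0.0317), with trended moderation (0.0377) or without p35S replicate 1 (0.0373). In total RNA of the hypoxic tips AT1G09750 read 9.11 and 9.41, so the p35S polysomes and not the pWOL polysomes were the group that stood apart from the unfractionated RNA (pWOL minus total 0.44, adjusted p = 0.507).

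All 5 measured root cap markers had negative differences, with a median of -1.17 in hypoxia and -1.93 in air, and their summed level was 8.97 and 9.00 in pWOL against 12.36 and 11.86 in p35S on the log2 scale. That sum is mostly AT5G54370, and the other 4 markers read 4.96 to 8.33 in p35S, with ATL63 (-0.28) and AT3G55180 (-0.57) the least apart. AT5G54370, a late embryogenesis abundant (LEA)-related protein, read 8.09 and 8.31 in pWOL and 12.19 and 11.66 in p35S, a difference of -3.72 ± 0.60 (SE, n = 2 each, limma, adjusted p = 0.00392). AT1G65570, a polygalacturonase that loosens pectin between root cap cells, read 5.52 and 5.30 in pWOL and 8.33 and 7.09 in p35S (-2.30 ± 0.39, adjusted p = 0.0046, but 0.0578 with the 4 compared arrays alone). Total RNA lay between the lines for both genes, at 10.03 and 10.05 for AT5G54370 and 6.62 and 6.75 for AT1G65570. In pooled polysomes like these, which cells carry the tag, the number of cells of a type and the RNA per cell cannot be told apart.

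**Figure D1:**
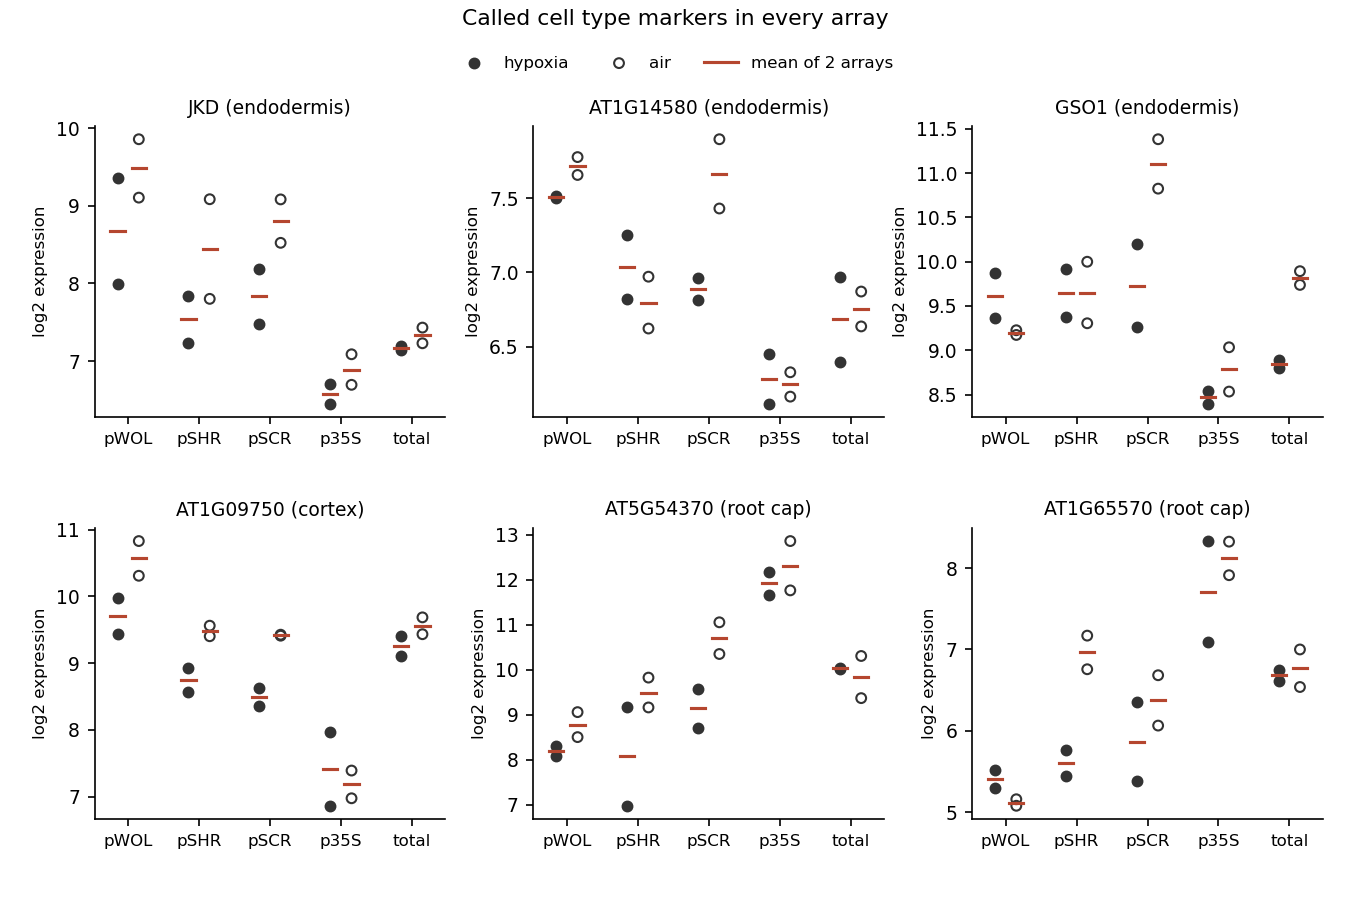
Log2 expression of the 6 called cell type markers in every array (filled points hypoxia, open points air, red bars the mean of 2 arrays), with pWOL at the left of each panel and the p35S and total RNA arrays at the right. The 4 endodermal and cortical genes sit higher in hypoxic pWOL than in hypoxic p35S arrays, and the 2 root cap genes sit lower, as for AT5G54370 with a difference of -3.72.

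Over all probe sets, 1885 of 22746 (8.29%) were called between pWOL and p35S in hypoxia, 874 higher and 1011 lower. Of these, 690 were higher and 784 lower by at least 1 log2 unit. The median difference over all probe sets was -0.0041, and the median of its size 0.27. Every called probe set had arrays without overlap, as did 52.4% of all probe sets. The precision is limited by the number of arrays: the count was 282 without pWOL replicate 1, 872 without pWOL replicate 2, 1192 without p35S replicate 1 and 828 without p35S replicate 2. With the 4 compared arrays alone, a fit with fewer arrays to estimate the spread, 564 were called, and of the 64 called genes named here 35 kept their call. Genes could be named for 1028 of the called probe sets (468 higher, 560 lower), since only probe sets with 1 annotated gene were named.

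**Figure D2:**
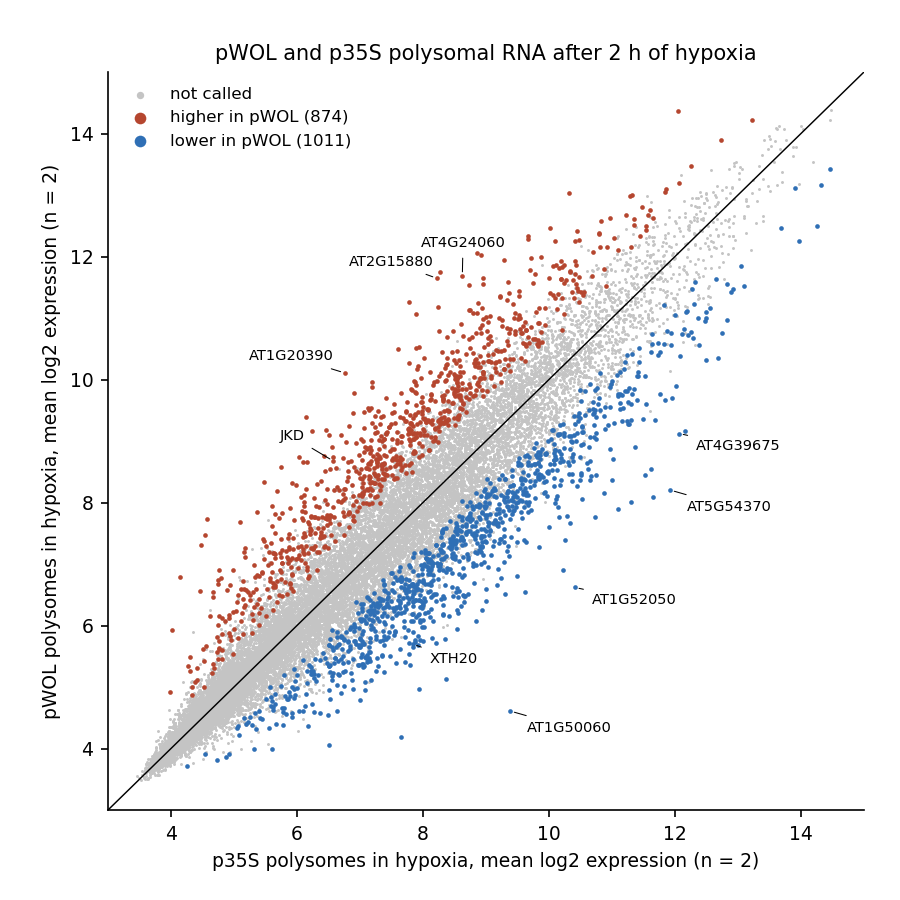
Mean log2 expression of each of 22746 probe sets in hypoxic pWOL polysomes (vertical) and hypoxic p35S polysomes (horizontal), 2 arrays each, with the 874 probe sets called higher in pWOL in red, the 1011 called lower in blue and the line of equal expression. Named points far from the line include AT2G15880 (3.43 higher in pWOL) and AT1G50060 (-4.78).

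Among the 15 largest named rises were 2 genes of pollen-type leucine-rich repeat extensins, cell wall proteins that pair a leucine-rich repeat with an extensin tail. AT2G15880 read 11.63 and 11.66 in pWOL and 7.54 and 8.89 in p35S. It was higher in pWOL by 3.43 ± 0.63 (SE, n = 2 each), or 10.8-fold, with an adjusted p of 0.00677 in limma's test (0.0598 without pWOL replicate 1). AT3G19020 read 6.99 and 8.48 in pWOL and 4.69 and 4.45 in p35S, a difference of 3.17 ± 0.64 (adjusted p = 0.0114, and 0.0882 without pWOL replicate 2 or 0.0616 without p35S replicate 2). Both genes were near the low end of the scale in p35S arrays in air, at 5.27 and 4.96 for AT2G15880 and 4.39 and 4.51 for AT3G19020. The remaining pollen-type members were looked up after these values were seen. AT1G49490 was higher by 2.10 ± 0.54 (adjusted p = 0.0312, and 0.0609 to 0.201 without any 1 of the 4 arrays), and AT4G33970, with hypoxia values between 4.16 and 4.75, differed by 0.22 (adjusted p = 0.53).

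A Dof zinc finger transcription factor, AT4G24060, from a family with several regulators of vascular development, was also among the 15 largest named rises. It read 11.94 and 11.42 in pWOL and 8.50 and 8.74 in p35S, which is 3.06 ± 0.36 higher (SE, n = 2 each; adjusted p = 0.0013), or 8.33-fold. In air it read 9.46 and 9.67 in pWOL and 7.14 and 7.49 in p35S, a difference of 2.25. Its level in hypoxia was 10.97 and 10.83 in pSHR and 8.75 and 8.07 in total RNA. AT4G24060 was not on any marker list.

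AT5G25560, a zinc finger protein of the CHY and RING type that can act in ubiquitin transfer, had p35S arrays far apart. It read 13.50 and 12.58 in pWOL and 9.55 and 11.09 in p35S, a difference of 2.72 ± 0.48 (SE, n = 2 each; adjusted p = 0.00562, and 0.0733 without pWOL replicate 1). AT2G02620 and AT5G02350 belong to the cysteine- and histidine-rich C1 domain family. AT2G02620 read 10.17 and 9.40 in pWOL and 6.09 and 7.72 in p35S (2.88 ± 0.54, adjusted p = 0.00758, but 0.0864 without pWOL replicate 1 and 0.0506 without p35S replicate 1). AT5G02350 read 7.76 and 7.19 in pWOL and 3.99 and 5.09 in p35S (2.93 ± 0.59, adjusted p = 0.0112, but 0.104 without pWOL replicate 1 and 0.073 without p35S replicate 1). For all 3 genes both pWOL arrays were above both p35S arrays, and the p35S arrays were more than 1 log2 unit apart.

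The gene table lists 2 of the 15 as pseudogenes. AT1G20390 read 9.61 and 10.61 in pWOL and 6.88 and 6.63 in p35S, 3.35 ± 0.52 higher (SE, n = 2 each; adjusted p = 0.00345). AT2G23330 read 10.12 and 9.79 in pWOL and 6.74 and 7.63 in p35S, 2.77 ± 0.41 higher (adjusted p = 0.0028). In hypoxic total RNA they were below the pWOL arrays too, at 5.70 and 5.55 for AT1G20390 and at 6.55 and 6.39 for AT2G23330. Signal from near-identical copies elsewhere cannot be told apart on these probes.

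The other 7 of the 15 were higher in pWOL by 2.60 to 3.26 log2 units. They were AT5G57080, AT1G70620, AT2G28240, AT5G13890, AT5G49640, AT1G33050 and AT3G01560. AT1G70620 read 12.05 and 12.06 in pWOL and 8.54 and 9.18 in p35S. AT1G33050 was the one of the 15 whose difference in air was below 1 log2 unit: it read 12.29 and 12.28 in pWOL and 8.83 and 10.49 in p35S in hypoxia, and 7.93 and 8.54 in pWOL and 7.68 and 7.88 in p35S in air. The differences were 2.62 ± 0.41 (SE, n = 2 each; adjusted p = 0.00343, but 0.0661 with the 4 compared arrays alone) in hypoxia and 0.46 (adjusted p = 0.571) in air, and the test of the change between them did not pass (2.16, adjusted p = 0.123). AT5G49640, at 6.62 and 6.97 in pWOL and 4.18 and 4.10 in p35S, lost its call without any 1 of the 4 arrays (adjusted p 0.0683 to 0.0993), and AT5G57080 without pWOL replicate 1 (0.0873) or p35S replicate 1 (0.053), and AT5G13890 without p35S replicate 2 (0.0535).

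**Figure D3:**
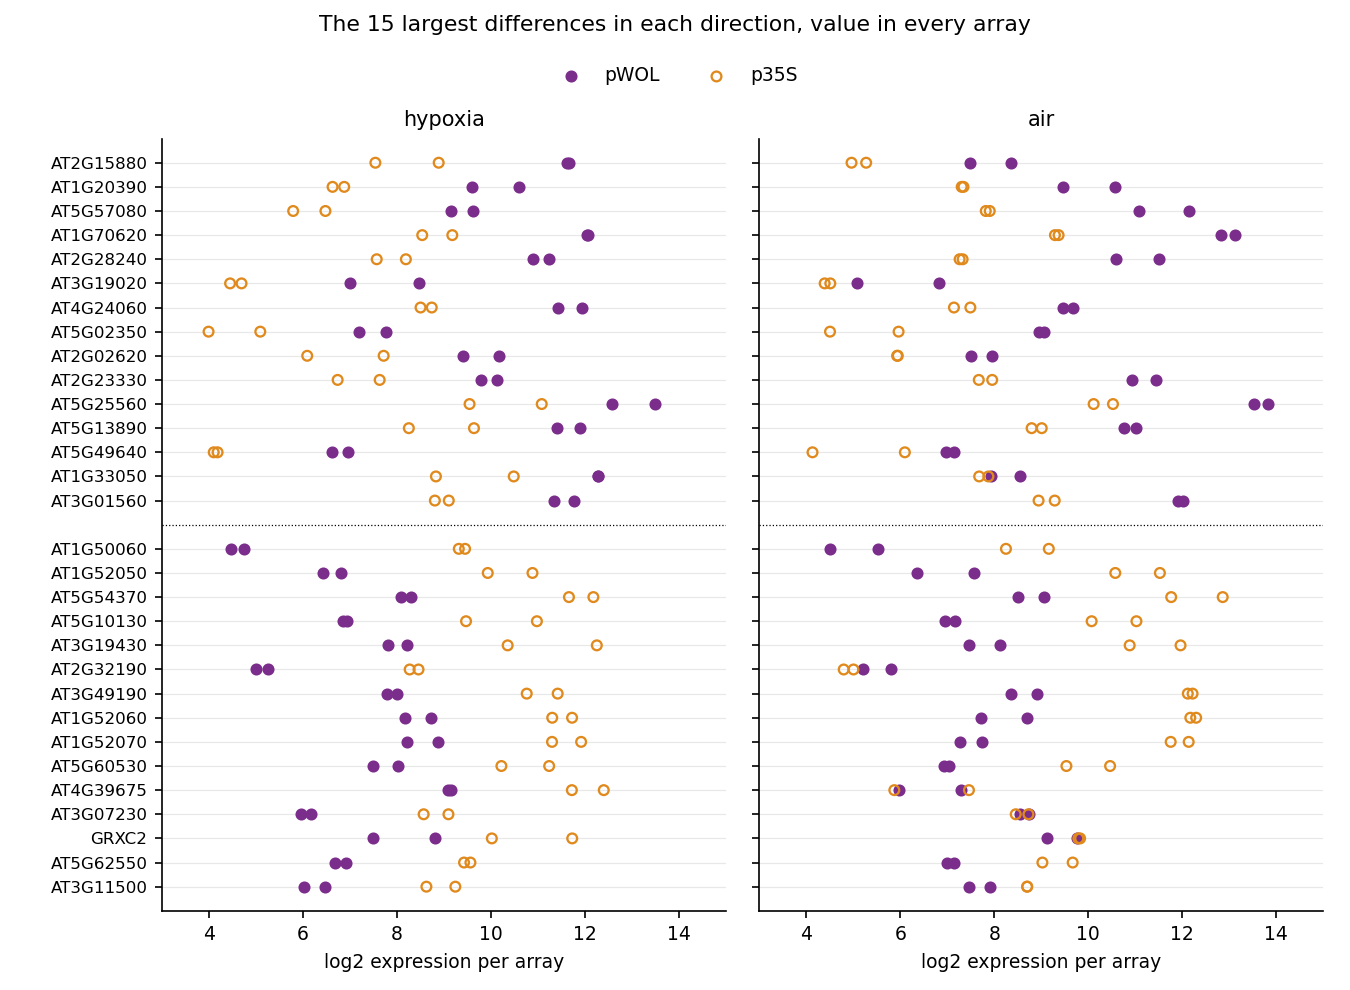
Log2 expression in each pWOL array (filled) and p35S array (open) for the 15 genes with the largest rise (above the dotted line) and the 15 with the largest fall (below it) in hypoxia, with the same genes in air at the right. In hypoxia the groups do not overlap for any of the 30 genes, while in air AT1G33050, AT4G39675 and AT3G07230 lie close together.

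AT1G50060 had the largest difference among the called genes that could be named. It belongs to the CAP superfamily of secreted cysteine-rich proteins, which includes the pathogenesis-related protein PR-1. It read 4.74 and 4.47 in pWOL and 9.45 and 9.32 in p35S, a difference of -4.78 ± 0.61 (SE, n = 2 each; limma, adjusted p = 0.0014). The pWOL values lie near the low end of the scale, where differences are understated (lowest value of these arrays 3.43 and 3.47). The p35S arrays were also above total RNA, which read 6.31 and 6.97, and the air values were 5.53 and 4.51 in pWOL and 8.25 and 9.16 in p35S.

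Jacalin-type lectins, proteins that bind sugars, gave 3 of the 15 largest falls, and the 3 genes are neighbours in the gene table. AT1G52050 read 6.42 and 6.82 in pWOL and 10.89 and 9.94 in p35S (-3.79 ± 0.56, SE, n = 2 each, adjusted p = 0.00259). AT1G52060 read 8.73 and 8.16 in pWOL and 11.73 and 11.31 in p35S (-3.07 ± 0.52, adjusted p = 0.00484), and AT1G52070 read 8.88 and 8.21 in pWOL and 11.92 and 11.30 in p35S (-3.07 ± 0.38, adjusted p = 0.0013). Every pWOL array was below every p35S array by more than 2 log2 units. Of the other genes of that stretch, looked up afterwards, AT1G52000 differed by 0.24 and AT1G52100 by -0.12, and neither was called. JAL22, a jacalin-related lectin of the family list, went the other way, with 13.00 and 12.99 in pWOL and 11.19 and 11.45 in p35S (1.67 ± 0.25, adjusted p = 0.00259).

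LEA-related proteins gave another 3 of the 15. Besides the root cap marker AT5G54370 they were AT3G19430, with 8.21 and 7.82 in pWOL and 12.26 and 10.36 in p35S (-3.29 ± 0.59, SE, n = 2 each, adjusted p = 0.00638, but 0.0595 with the 4 compared arrays alone), and AT5G60530, with 8.02 and 7.50 in pWOL and 11.24 and 10.23 in p35S (-2.98 ± 0.52, adjusted p = 0.00561). Relatives looked up after these values were seen were called as well, AT5G60520 by -2.29 and AT4G27400 by -2.52. Both lost the call without pWOL replicate 1 (adjusted p 0.0834 and 0.105), pWOL replicate 2 (0.0949 and 0.0725) or p35S replicate 1 (0.124 and 0.0878). All 5 genes were also lower in air, by -3.02 to -3.95. AT5G60520 and AT5G60530 are neighbours in the gene table.

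AT5G10130, of the pollen Ole e 1 allergen and extensin family, read 6.94 and 6.85 in pWOL and 10.98 and 9.47 in p35S (-3.33 ± 0.45, SE, n = 2 each, adjusted p = 0.00177). AT3G49190, an acyltransferase related to the wax ester synthase WSD1, read 8.00 and 7.78 in pWOL and 11.42 and 10.77 in p35S (-3.20 ± 0.37, adjusted p = 0.0013). These 2 genes were as far apart in air, by -3.50 and -3.54. AT5G62550 had the smallest adjusted p of all probe sets, 1.15e-04, with 6.68 and 6.91 in pWOL and 9.57 and 9.43 in p35S (-2.70 ± 0.22).

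The other falls among the 15, beside AT4G39675 below, had smaller differences in air, none of them called. AT2G32190, of a family of small cysteine-rich membrane proteins, read 5.25 and 5.01 in pWOL and 8.27 and 8.46 in p35S in hypoxia (-3.24 ± 0.36, SE, n = 2 each, adjusted p = 0.00128), and 5.80 and 5.20 in pWOL and 4.79 and 5.00 in p35S in air. AT3G07230, a protein similar to wound-responsive proteins, read 5.97 and 6.18 in pWOL and 8.57 and 9.10 in p35S in hypoxia (-2.76 ± 0.31, adjusted p = 0.00128) and 8.74 and 8.55 in pWOL and 8.73 and 8.46 in p35S in air. GRXC2, a glutaredoxin, read 7.50 and 8.80 in pWOL and 10.02 and 11.73 in p35S in hypoxia (-2.72 ± 0.57, adjusted p = 0.0129, but 0.141 without pWOL replicate 1 and 0.106 without p35S replicate 2). For AT2G32190 the hypoxic p35S arrays were the high ones of the 8, and for AT3G07230 the hypoxic pWOL arrays were the low ones. AT3G11500, the SmG core protein of the splicing machinery, read 6.03 and 6.48 in pWOL and 8.63 and 9.25 in p35S (-2.68 ± 0.39, adjusted p = 0.00229), with a difference of -1.01 in air that was not called.

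Among transcripts that oxygen shortage induces, called falls in pWOL against p35S polysomes outnumbered called rises. Of 53 genes on the low-oxygen response list 28 were measured. Among them 7 (25.0%) were called lower and 2 (7.14%) higher, against 4.44% and 3.84% of all probe sets. Of the 28 differences 20 were negative. Their median was -0.81, against -0.0041 over all probe sets. In air the median of the same genes was 0.14, with 2 called higher and 3 lower, against 6.64% and 5.84% of all probe sets. Against hypoxic total RNA 4 of the 28 were called higher and 4 lower in pWOL (3.51% and 3.65% of all probe sets). Their median there was -0.34. AT4G39675, AT2G17850 and AT4G10270 were called lower than in total RNA too. The other falls from p35S, of AT1G19530, AT4G33560, CML38 and AT1G10140, were not called against total RNA (differences of -0.76 to 0.17). Earlier work on these samples supplied part of the list, which makes the direction no independent evidence. Of the 7 falls, those of AT4G39675, AT2G17850 and AT1G19530 kept their call without any 1 of the 4 arrays, and the other 4 did not.

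AT4G39675, a small protein of unknown function induced by low oxygen in many Arabidopsis tissues, read 9.09 and 9.15 in pWOL and 11.73 and 12.41 in p35S (-2.95 ± 0.49, SE, n = 2 each, adjusted p = 0.0047). Its hypoxic means were 9.17 in pSHR, 10.18 in pSCR and 11.17 in total RNA. In air it read 7.29 and 5.97 in pWOL and 7.46 and 5.87 in p35S. Its hypoxia minus air difference was thus 2.49 in pWOL and 5.40 in p35S, although the test of that gap did not pass (adjusted p = 0.1).

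AT1G19530 read 8.61 and 9.20 in pWOL and 10.94 and 11.80 in p35S (-2.46 ± 0.34, adjusted p = 0.00179), and its hypoxia minus air difference was 3.64 in pWOL and 6.36 in p35S. AT2G17850, a rhodanese-like sulfurtransferase, read 7.99 and 7.58 in pWOL and 9.81 and 10.75 in p35S (-2.49 ± 0.34, adjusted p = 0.00177), with a hypoxia minus air difference of 2.40 in pWOL and 5.21 in p35S. With all arrays, the test of the difference itself passed narrowly for both genes (AT1G19530 -2.72, adjusted p = 0.0499; AT2G17850 -2.81, adjusted p = 0.0461). Neither test passed without 1 of the 8 arrays (AT1G19530 adjusted p 0.0689 to 0.204, AT2G17850 0.102 to 0.148), except without p35S replicate 1 in hypoxia. Neither passed with the compared arrays alone (0.0901 and 0.0789), and AT1G19530 did not pass with quantile (0.057) or median scaling (0.0514) or with control probe sets kept (0.05). The air values of the 2 genes lay between 4.84 and 5.68 in all arrays of both lines. Hypoxic means of AT1G19530 were 9.30 in pSHR, 9.41 in pSCR and 9.64 in total RNA. Those of AT2G17850 were 7.73, 8.26 and 9.18.

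The remaining called members were named after their values were seen, other than AT4G33560 and AT4G10270, which are also on the jasmonate and wounding list. AT4G33560, a wound-induced protein of the WIP family, read 9.49 and 9.90 in pWOL and 11.94 and 11.97 in p35S (-2.26 ± 0.48, SE, n = 2 each, adjusted p = 0.014, but 0.117 without pWOL replicate 1, 0.0509 without p35S replicate 1 and 0.0649 without p35S replicate 2). AT4G10270, of the same family, read 11.46 and 10.75 in pWOL and 11.98 and 12.40 in p35S (-1.09 ± 0.29, adjusted p = 0.0386), and lost its call without any 1 of the 4 arrays (0.0574 to 0.254). CML38, a calmodulin-like protein of the stress granules that form in hypoxia, read 8.15 and 9.58 in pWOL and 10.47 and 11.47 in p35S (-2.11 ± 0.51, adjusted p = 0.0243, but 0.244 without pWOL replicate 1 and 0.169 without p35S replicate 2). AT1G10140 differed by -1.47 ± 0.31 (adjusted p = 0.0142, but 0.158 without pWOL replicate 1 and 0.069 without p35S replicate 2). The only called rise beside AT2G15880 was that of AT3G10040 (HRA1), a trihelix factor that dampens the low-oxygen response, with 12.84 and 12.53 in pWOL and 11.73 and 11.41 in p35S (1.11 ± 0.31, adjusted p = 0.0447, but 0.0815 to 0.269 without any 1 of the 4 arrays).

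Fermentation and sugar breakdown genes were not told apart between the lines in hypoxia. Of 12 measured genes 0 were called in limma's test, and the median difference was -0.16. PDC2, a pyruvate decarboxylase, read 12.76 and 12.55 in pWOL and 13.72 and 13.09 in p35S (-0.75 ± 0.31, SE, n = 2 each, adjusted p = 0.163), and AT4G17260, lactate dehydrogenase, 10.48 and 10.24 in pWOL and 11.45 and 10.79 in p35S (-0.76 ± 0.23, adjusted p = 0.0571). PPDK, pyruvate orthophosphate dikinase, had the list's largest difference, with 5.60 and 5.77 in pWOL and 7.58 and 6.51 in p35S (-1.36 ± 0.47, adjusted p = 0.0945, or 0.0497 with trended moderation). Both pWOL arrays lay below both p35S arrays for these 3 enzymes, and AT4G17260 passed without p35S replicate 2 (adjusted p = 0.0284). In air 7 of the 12 were called lower in pWOL, against 5.84% of all probe sets, and the median was -1.21. Yet for 0 of the 12 did the difference between hypoxia and air pass its own test.

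Calls among other stress genes included glutathione transferases, of which GSTU25 counts both in the reactive oxygen list and in its family. Of 10 measured reactive oxygen and mitochondrial stress genes 2 were lower: GSTU25, a glutathione transferase, read 8.57 and 8.53 in pWOL and 10.71 and 10.52 in p35S (-2.07 ± 0.27, SE, n = 2 each, adjusted p = 0.00149), and the zinc finger repressor STZ read 7.52 and 8.56 in pWOL and 9.35 and 9.23 in p35S (-1.25 ± 0.30, adjusted p = 0.0227, but 0.232 without pWOL replicate 1, 0.0916 without p35S replicate 1 and 0.0772 without p35S replicate 2). Against 4.44% of all probe sets called lower and 3.84% higher, glutathione transferases as a family had 3 of 12 called lower, 0 higher and a median of -0.35. Besides GSTU25 these were GSTF4, with 5.10 and 5.43 in pWOL and 7.24 and 7.26 in p35S (-1.98 ± 0.25, adjusted p = 0.0013), and GSTU23, with 7.41 and 7.61 in pWOL and 8.93 and 8.70 in p35S (-1.31 ± 0.26, adjusted p = 0.0109, but 0.0969 without pWOL replicate 1 and 0.0556 without p35S replicate 1). In air GSTU25 was called lower in pWOL as well (-1.75), while GSTF4 (0.17) and GSTU23 (-0.27) were not called. Against hypoxic total RNA 0 of the 12 were called lower in pWOL. These enzymes join glutathione to reactive compounds.

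Of 16 measured heat shock and FKBP chaperone genes only AT2G19310 was called, at 5.52 and 5.31 in pWOL and 6.41 and 7.20 in p35S (-1.39 ± 0.27, adjusted p = 0.00897, but 0.0554 to 0.0703 without pWOL replicate 1, pWOL replicate 2 or p35S replicate 2). The list's median was -0.40, with 4 differences positive and 12 negative. AT5G51440 had the largest rise of the list and was not called (0.85 ± 0.56, adjusted p = 0.418 in limma's test). It read 9.38 and 9.36 in pWOL and 7.92 and 9.12 in p35S. AT1G53540, a small heat shock protein, had the largest difference, -1.84, and was not called: it read 5.75 and 5.88 in pWOL and 5.97 and 9.34 in p35S. Without p35S replicate 1, AT1G53540 differed by -3.53, AT2G29500 by -1.99 and AT5G37670 by -1.79, all small heat shock proteins. That fit rests on the higher p35S array alone, as AT2G29500 read 6.03 and 7.62 and AT5G37670 7.65 and 8.91 in p35S. With all arrays AT2G29500 was called by limma with the dim probe sets left out (adjusted p = 0.0363) or with trended moderation (0.0269).

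UDP-glycosyltransferases, which attach sugars to hormones and flavonoids, were the one enzyme family counted here with several rises. Of 43 measured 5 (11.6%) were called higher and 0 lower, against 3.84% and 4.44% of all probe sets, while the family's median was 0.01. UGT87A2 read 10.38 and 10.02 in pWOL and 9.06 and 8.67 in p35S (1.33 ± 0.28, SE, n = 2 each, adjusted p = 0.0125), UGT73B1 8.96 and 10.03 in pWOL and 7.83 and 8.14 in p35S (1.51 ± 0.42, adjusted p = 0.0437), and UGT73D1 7.58 and 6.85 in pWOL and 5.58 and 6.07 in p35S (1.38 ± 0.36, adjusted p = 0.0348). These calls were lost without pWOL replicate 1 (adjusted p 0.118, 0.0587 and 0.285) and without p35S replicate 2 (0.0866, 0.11 and 0.0665), and for UGT73B1 and UGT73D1 also without p35S replicate 1 (0.171 and 0.172) and for UGT73B1 without pWOL replicate 2 (0.287). The other called members, named after their values were seen, were UGT78D2, a flavonoid glucosyltransferase (0.85, adjusted p = 0.0335, but 0.303 without pWOL replicate 1, 0.0987 without p35S replicate 1 and 0.13 without p35S replicate 2), and UGT71C2 (0.61, adjusted p = 0.0424, but 0.114 to 0.182 without any 1 of the 4 arrays). No member thus kept its call throughout. In air 3 of the family were called higher and 1 lower, and none of the 3, UGT71C5, UGT76C2 and UGT76D1, was called in hypoxia. For 0 members did the change between hypoxia and air pass its test.

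Of 15 measured cell wall loosening and xyloglucan genes 2 were lower and 0 higher, against 4.44% and 3.84% of all probe sets, with a median of -0.32. XTH20, a xyloglucan endotransglucosylase, read 5.55 and 5.85 in pWOL and 7.59 and 8.08 in p35S (-2.14 ± 0.33, SE, n = 2 each, adjusted p = 0.0031), and the expansin EXPA4 read 6.56 and 6.89 in pWOL and 8.33 and 7.55 in p35S (-1.21 ± 0.33, adjusted p = 0.0417). EXPA4 lost its call without pWOL replicate 1 (0.255), pWOL replicate 2 (0.091) or p35S replicate 1 (0.255). The Aurora kinase AUR2, which acts in mitosis, was the one of 4 measured cell cycle genes that was called, at 8.87 and 8.21 in pWOL and 7.15 and 7.13 in p35S (1.40 ± 0.36, adjusted p = 0.0302, but 0.249 without pWOL replicate 1, 0.0953 without p35S replicate 1 and 0.116 without p35S replicate 2). Its relatives lay on the other side of 0 and were not called: AUR1 read 8.49 and 8.87 in pWOL and 9.31 and 10.05 in p35S (adjusted p = 0.083), and AUR3 differed by -0.55. In air XTH20 (-1.28), EXPA4 (-1.16) and AUR3 (-0.94) were called lower in pWOL and AUR2 (1.27) higher.

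Hormone lists held few measured genes. Of 3 ethylene genes AT1G12010, an ACC oxidase, was lower, at 6.32 and 6.86 in pWOL and 7.70 and 8.15 in p35S (-1.33 ± 0.28, SE, n = 2 each, adjusted p = 0.0141, but 0.144 without pWOL replicate 1 and 0.0986 without p35S replicate 2). Both measured cytokinin response regulators, RR16 (-0.19) and ARR15 (-0.13), overlapped between the lines. Of 7 auxin genes 0 were called in limma's test, and GH3.3, which conjugates auxin to amino acids, came nearest, with 8.62 and 9.01 in pWOL and 8.03 and 7.28 in p35S (1.16, adjusted p = 0.0536). GH3.3 passed with quantile or median scaling, trended moderation, the dim probe sets left out, or without p35S replicate 1 (adjusted p 0.0371 to 0.0497). Cytochrome P450 enzymes (24 measured), class III peroxidases (7), WRKY factors (7), kinesins and microtubule proteins (10) and plastid-encoded genes (69) had 0 calls in hypoxia, with medians of -0.0033, -0.33, 0.12, -0.40 and 0.13. The families cover only genes found by name. Most of the P450 genes were of the CYP71B subfamily, many of them near the low end of the scale. The histone HTB2 was lower by -1.63 (adjusted p = 0.00522, and 0.0697 without pWOL replicate 1), and the other 2 measured histones were not called, though HIS1-3 (-1.44) passed without p35S replicate 1 (0.0276), with the dim probe sets left out (0.0444) or with trended moderation (0.0423).

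**Figure D4:**
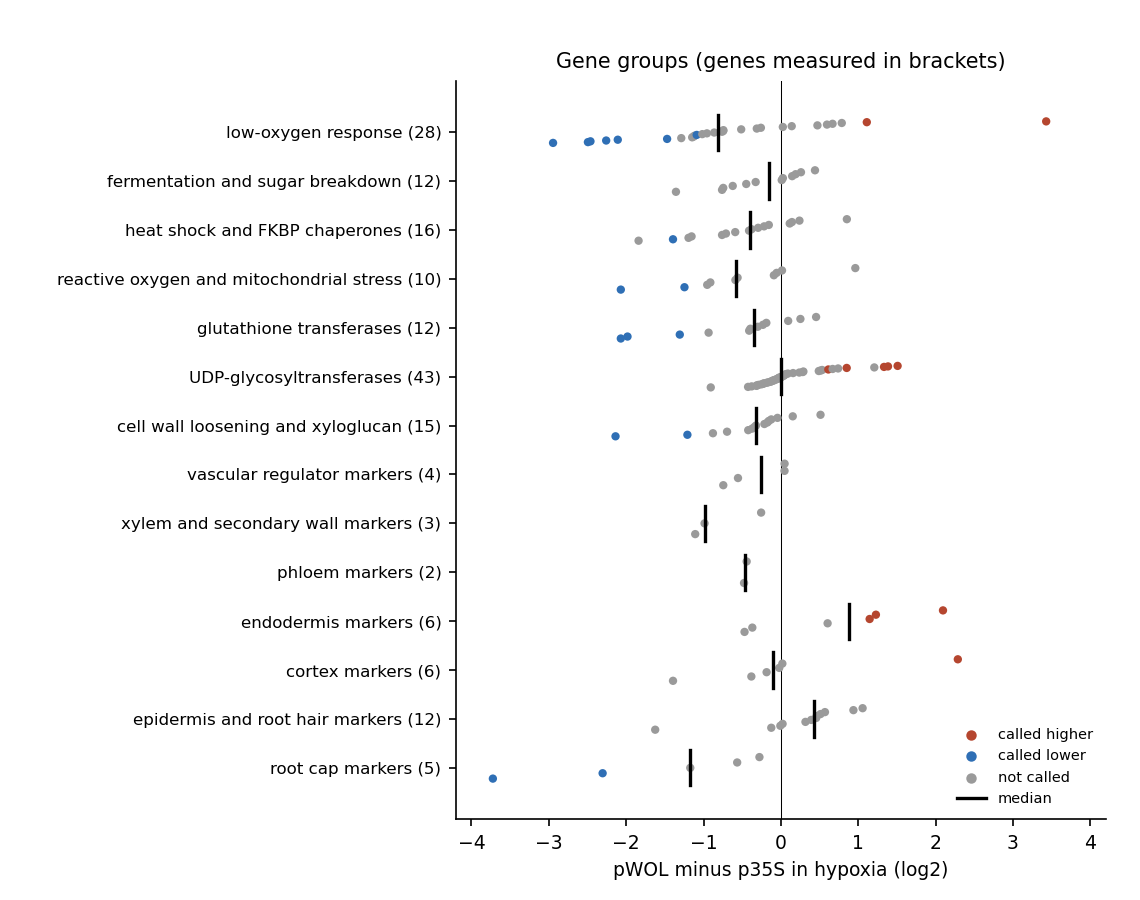
Difference of pWOL minus p35S in hypoxia (log2) for each measured gene of 14 groups, red and blue where called higher and lower, grey where not called, with black bars at the group's median and the number of measured genes in brackets. The low-oxygen genes lie mostly left of 0 (median -0.81), the root cap markers all do (median -1.17), and the called UDP-glycosyltransferases all lie to the right.

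Part of the line difference in hypoxia was also measured in air, on other arrays of the same lines. In air 2840 probe sets (12.5%) were called, 1511 higher and 1329 lower. Of the 874 probe sets higher in hypoxia, 507 were also higher in air, which is 58.0% of the hypoxia calls and 33.6% of the air calls. Of the 1011 lower in hypoxia, 225 were also lower in air (22.3% of the hypoxia calls and 16.9% of the air calls). Only 5 were higher in hypoxia and lower in air, and 4 the reverse. Across all 22746 probe sets the hypoxia and air differences correlated at r = 0.537, a description over probe sets that are not independent.

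Air differences were larger among the rises than among the falls. Probe sets higher in hypoxia had a median difference of 1.32 in hypoxia and 1.15 in air, whereas those lower had -1.30 in hypoxia and -0.48 in air. The air difference was smaller than 1 log2 unit for 373 (42.7%) of the higher and 823 (81.4%) of the lower probe sets, against 87.5% of all. Directly tested, the change in the line difference between hypoxia and air passed for 36 probe sets (0.158%), 15 more positive (0.0659%) and 21 more negative (0.0923%). Among them were 1 of the 874 and 15 of the 1011. Those sets were chosen on the hypoxia difference, which enters this change, so these counts and the medians above are a description. Without p35S replicate 1 in hypoxia 156 probe sets passed, and without 1 of the other 7 arrays 0 to 7 did.

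**Figure D5:**
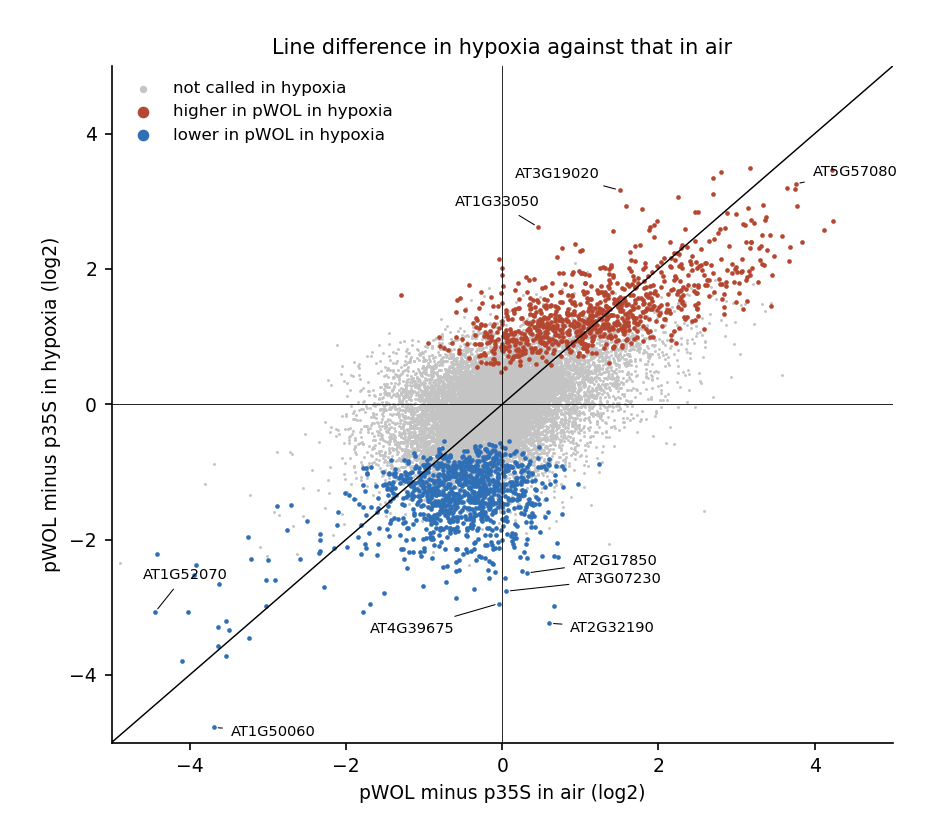
Difference of pWOL minus p35S in hypoxia (vertical) against that in air (horizontal), log2, for 22746 probe sets, with those called higher in hypoxia in red, lower in blue and the line of equal differences. Red points spread along the line, while many blue points lie near 0 in air, as for AT4G39675 and AT3G07230.

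Levels in the other hypoxic samples place the difference. Probe sets called higher had a median level of 9.08 in pWOL, 8.69 in pSHR, 8.41 in pSCR, 7.91 in total RNA and 7.59 in p35S, and those called lower had one of 7.17 in pWOL, 7.51 in pSHR, 7.43 in pSCR, 7.86 in total RNA and 8.53 in p35S. The pSHR level was nearer to pWOL than to p35S for 80.9% of the higher and 83.4% of the lower probe sets, against 60.2% of all probe sets. For total RNA these shares were 25.5% and 51.5%, against 47.3% of all. In the lower set, then, total RNA had its median between the 2 lines, and the p35S polysomes had the highest median of the 5 hypoxic RNA populations. The sets were chosen for their difference between pWOL and p35S, so these medians and shares are a description. The shares of all probe sets are no neutral reference, since those probe sets were not so chosen.

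A direct test of pWOL against pSHR in hypoxia, which uses the same pWOL arrays, called 2 probe sets (0.00879%), 1 higher and 1 lower (0.0044% each), with 1430 at an unadjusted p below 0.05. BPC1, a GAGA-binding factor, read 7.99 and 8.13 in pWOL and 4.46 and 4.23 in pSHR (3.71, adjusted p = 4.22e-05), and 6.87 and 7.69 in p35S, so pSHR was the line that stood apart (pWOL minus p35S 0.78, adjusted p = 0.0846, or 0.029 without p35S replicate 2). AT2G37870, of the lipid transfer protein family, read 7.39 and 7.31 in pWOL, 9.45 and 9.87 in pSHR and 9.30 and 9.68 in p35S. It was lower in pWOL than in pSHR by -2.31 (adjusted p = 0.00614, but 0.122 without pWOL replicate 1, 0.167 without pWOL replicate 2 and 0.11 without pSHR replicate 2) and lower than in p35S by -2.14 ± 0.26 (SE, n = 2 each, adjusted p = 0.0013). With total RNA as the partner of the same pWOL arrays, 1629 probe sets (7.16%) were called, 799 higher (3.51%) and 830 lower (3.65%) in pWOL, and 338 to 604 without 1 of the 4 arrays.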

How the data were processed

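Polysomal RNA was measured on 22810-probe-set Arabidopsis arrays after 2 rounds of amplification from 400 pg of RNA, per the labels' protocols. The deposited values are log2 expression, which the authors made with RMA and the Bioconductor package affy per the submitters' processing notes (versions and chip definition not given in the sources used here). RMA draws weak signals to a floor, so differences of dim genes are understated. No genome build is named, and no coordinates are given. The 64 control probe sets were left out. Of the 22746 tested, 13513 had 1 gene in the platform annotation, 503 several and 8730 none, and 13436 matched the gene table of the TAIR10.1 assembly. Roles of genes known by locus code are background knowledge.

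Differences were computed from the deposited values with limma 3.58.1 (R 4.3.3): 10 group means fitted to all 20 arrays (10 residual degrees of freedom, prior 3.30), with Benjamini-Hochberg adjustment over 22746 probe sets in each of 5 comparisons, called below 0.05. Errors are standard errors of that fit, which was tested on simulated data. The number of arrays limits the precision. Named were the 15 largest called differences without overlap in each direction, up to 6 per direction for the change between hypoxia and air, up to 5 for pWOL against pSHR, up to 4 members of each list by size of difference and every called marker. Members and lists were chosen with earlier results of these data known. Families were found by name in the gene table, and plastid genes were added after the file was seen. Summed levels are log2 of the summed unlogged values.

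Replicate numbers did not pair the lines: deviations of same-numbered pWOL and p35S arrays correlated at r = -0.0992 in hypoxia and 0.0918 in air. Alternatives were a replicate block, the compared arrays alone, the dimmest 25% of probe sets left out, quantile and median scaling, trended robust moderation, control probe sets kept, and each array left out.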

Additional observations from a re-analysis of the deposited data

Results flagged for a closer look

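The pWOL minus p35S difference itself differed between hypoxia and air for 36 probe sets by limma's test of that change (adjusted p below 0.05), 21 of which have 1 named gene. These results stand out because the same contrast of lines gave unlike values in the 2 conditions, and each named value below is the hypoxia difference minus the air difference on the log2 scale. At an unadjusted p below 0.05 there were 2993 probe sets. None of the 36 calls remained without pWOL replicate 1 or p35S replicate 2 in hypoxia, without either p35S array in air, with the replicate block or with the compared arrays alone.

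More positive in hypoxia were AT3G18190, a subunit of the CCT chaperonin that folds tubulin and actin (2.37), the nucleolar GTPase AT1G50920 (2.11), the pentatricopeptide repeat protein AT1G15480 (1.93), the endoplasmic reticulum DnaJ protein ATERDJ3B (1.85) and the F-box protein SLOMO (1.67). AT3G18190 read 10.91 and 10.58 in pWOL and 10.59 and 10.21 in p35S in hypoxia, and 9.00 and 8.63 in pWOL and 10.69 and 10.99 in p35S in air. Of these 5 genes ATERDJ3B was called between the lines in hypoxia (0.91, but not without pWOL replicate 1, pWOL replicate 2 or p35S replicate 2, with adjusted p 0.0831, 0.174 and 0.179), and all 5 were called lower in pWOL in air (-0.95 to -2.03).

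More negative in hypoxia were SETH6 (-4.16), AT2G32190 (-3.84), AT3G07230 (-2.82), AT2G17850 (-2.81), AT3G03150 (-2.76), AT1G19530 (-2.72) and GSTF4 (-2.16). SETH6 was not called between the lines in hypoxia itself (-1.57, adjusted p = 0.0527) and read 5.39 and 5.37 in pWOL and 6.58 and 7.33 in p35S in hypoxia, and 9.23 and 8.56 in pWOL and 5.66 and 6.96 in p35S in air. AT3G03150 read 8.08 and 8.05 in pWOL and 10.05 and 10.19 in p35S in hypoxia, and 10.35 and 10.74 in pWOL and 9.72 and 9.96 in p35S in air. GSTF4 read 6.72 and 6.57 in pWOL and 6.19 and 6.75 in p35S in air.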

How the results depend on the processing

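The 1885 calls between pWOL and p35S in hypoxia became 564 with the compared arrays alone and 282 to 1192 without 1 array; such fits have fewer samples, and a lone array is assumed to vary like the other groups. The other settings gave 1847 (replicate block) to 2098 (dimmest 25% of probe sets left out). Higher calls made up 46.4% of all calls, 53.6% with each array centred on its median and 36.2% without p35S replicate 1. The 2840 calls in air became 1214 to 1452 without 1 array, and the 1629 against total RNA 338 to 604. The 36 calls for the change between hypoxia and air became 0 with the replicate block, 0 with the compared arrays alone and 0 to 156 without 1 array; their higher share was 41.7%, and 52.9% with median centring. The 2 calls against pSHR became 0 with the compared arrays alone and 1 to 2 without 1 array. No called difference of a named gene turned its direction. Of the 30 largest differences, 30 kept their call with the replicate block, both scalings, the dim filter, trended moderation and control probe sets kept, 24 with the compared arrays alone and 23 to 28 without 1 array. Of 64 called named genes, 60 kept theirs with the block (GSO1, EXPA4, AT3G10040 and UGT71C2 did not, with adjusted p of 0.0555, 0.052, 0.0508 and 0.0517), 61 with trended moderation, 35 with the compared arrays alone and 34 to 50 without 1 array. GH3.3 and SETH6 gained a call with the block (0.0311 and 0.0438). The replicate numbers do not pair the lines. The causes of these changes were not tested.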

Other observations

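Some genes were called between the lines in air and not in hypoxia. Of 10 measured kinesins and microtubule proteins 6 were called lower in pWOL in air, with a median of -1.21, and 0 in hypoxia, with a median of -0.40, against 5.84% and 4.44% of all probe sets called lower. TUA6, an alpha-tubulin named after its values were seen, differed by -2.52 in air and -0.44 in hypoxia, and the test of that change did not pass (2.08, adjusted p = 0.146). The plastid chaperonins Cpn60beta2 and Cpn60beta3 differed by -1.55 and -1.56 in air and by 0.49 and 0.26 in hypoxia, with an adjusted p of 0.0652 for both changes. EIN3, the transcription factor of ethylene signalling, differed by -1.06 in air and 0.66 in hypoxia (change 1.72, adjusted p = 0.0862), and the hypoxia difference passed without p35S replicate 1 (adjusted p = 0.0336). None of these changes between hypoxia and air passed its test.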
